A study of Caenorhabditis elegans with 2 samples.

Results

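The genes described here are 34 protein-coding genes of Caenorhabditis elegans that build and regulate meiotic chromosome pairing, synapsis and recombination. They were listed by name, and all 34 were found in the annotation, among 19973 nuclear coding genes. None lies on X: 11 are on chromosome I, 2 on II, 4 on III, 11 on IV and 6 on V.

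ChIP-seq mapped the chromatin bound by LIN-35 in strain YL521, using whole worms at the young adult stage, with males and females pooled. The 2 samples are biological replicates 1 and 2 of a single group, with no untreated or mutant group beside them. Every worm carried unc-119(ed3) on chromosome III and the integrated transgene vrIs117. In that transgene the pie-1 promoter drives LIN-35 with GFP and FLAG tags, followed by puf-5 3' sequence, and a working copy of unc-119 rescues the allele. The line is 1 transgenic strain, the antibody is labelled as lin-35, and the share of tagged against endogenous protein in the recovered chromatin is not given. The pie-1 promoter is active in the germ line. The peak lists come from whole animals, so binding in germ cells and in somatic cells cannot be told apart.

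LIN-35 is the only retinoblastoma-family protein of the worm. It works in the DREAM complex, which holds the E2F and DP partners EFL-1 and DPL-1 and the DNA-binding subunit LIN-54, and which represses cell cycle genes and, in somatic cells, genes of the germ line. Meiotic genes act in germ cells entering prophase: homologues pair at pairing centres, the synaptonemal complex joins their axes, SPO-11 cuts the DNA, and a few of the breaks are made into crossovers. The question asked of these genes is whether LIN-35 peaks lie at their 5' ends, and whether both replicates show them.

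The authors deposited 4 peak lists in ce11 coordinates. The thresholded list held 2712 peaks that passed an irreproducible discovery rate threshold, and these were the 2712 strongest of the 30000 peaks in a relaxed list from pooled reads. Relaxed lists of peaks and background held 30000 peaks for replicate 1 and 26192 for replicate 2. The signal of a peak is the authors' own value on a scale that is not given, so it ranks peaks within a list and is not compared between lists. Rank 1 is the strongest peak. A list counted for a gene when it placed a summit at most 500 bp from the 5' end of the annotated gene. The read depth of the libraries is unknown.

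Few of these genes had a LIN-35 peak in the thresholded list or in both replicates. In the thresholded list 1 of 34 had a summit, him-17, against 8.61% of all coding genes. In the pooled relaxed list 12 of 34 (35.3%) had one, against 29.2% of all coding genes. Replicate 1 had a summit at 16 of 34 (47.1%), against 31.1% of all coding genes, and replicate 2 at 7 of 34 (20.6%), against 28%. Both replicates had one at 4 of 34 (11.8%), namely him-17, cra-1, syp-4 and dsb-1, against 20.3% of all coding genes. No relaxed list had a summit at 14 of the 34 (41.2%), against 59.7% of all coding genes. The shares in the relaxed lists therefore lay on both sides of the background, and those in the thresholded list and in both replicates lay below it. With 1 group and genes as the units, none of these differences was tested.

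**Figure D1:**
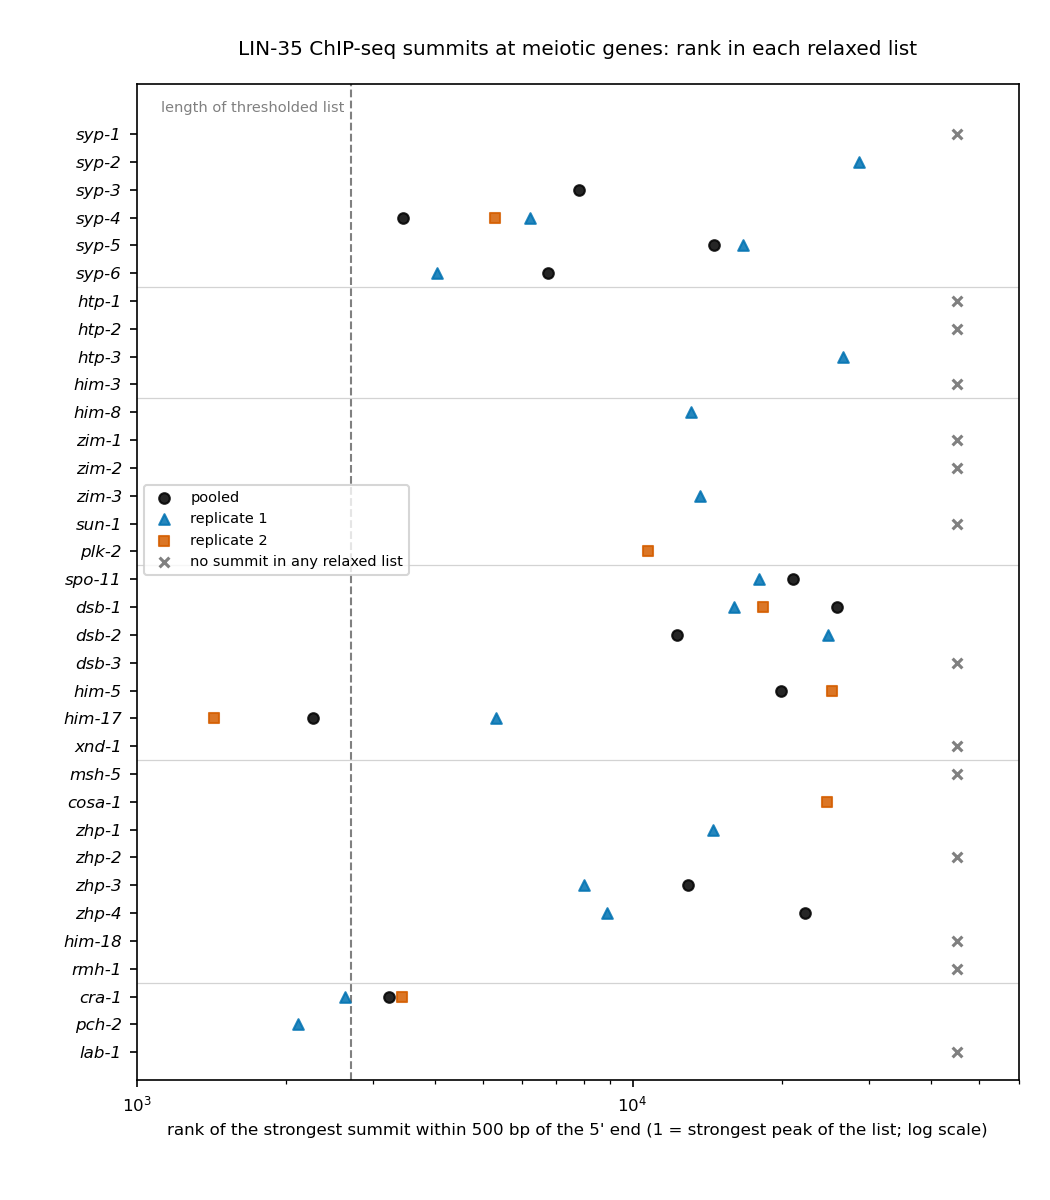
Rank of the strongest summit within 500 bp of the 5' end of each of the 34 genes (log axis, 1 is the strongest peak) in the pooled list (circles), replicate 1 (triangles) and replicate 2 (squares); crosses mark genes with no summit in these lists, and grey lines separate the roles. The dashed line is at 2712, the length of the thresholded list: the pooled and replicate 2 summits of him-17 and the replicate 1 summits of cra-1 and pch-2 lie to its left.

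Members that act in double-strand break formation gave the one thresholded peak. HIM-17, a chromatin-associated protein with THAP domains that is needed for breaks to form, is encoded by a gene that interacts genetically with lin-35. Its peak lay at chrV:13176443-13176738, in the intergenic stretch upstream of the gene, with a summit 120 bp upstream of the 5' end. Its signal of 47.7 ranked 2265 of 2712, and the median signal of that list was 68.7. In replicate 2 the summit lay 164 bp upstream, with a signal of 43.1 and rank 1435. In replicate 1 it lay 90 bp upstream, with a signal of 13.1 and rank 5309, below the 2712 strongest of that list. Both replicates thus placed a summit at him-17, 74 bp apart, and its standing in the thresholded list was matched by replicate 2 and not by replicate 1. No other coding 5' end lay within 500 bp of any of these summits.

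The thresholded him-17 summit lies beside a word of the form bound by E2F, here TTNNCGC on either strand with each N limited to cytosine or guanine. The pooled summit was 7 bp from the centre of that word, the replicate 1 summit 23 bp and the replicate 2 summit 51 bp. The window from 250 bp before to 50 bp after the 5' end of him-17 also holds 1 match to the word reversed. That reversed form keeps the base composition. Over all coding genes, 20.1% of those with the reversed word had a thresholded summit, against 19.4% of those with the E2F word. The sequences below are shown because they hold E2F words of members, at 1 gene with a thresholded peak and 2 without. They are from the RefSeq genome of the same assembly, WBcel235, written 5' to 3' on the strand of the gene (plus for all 3), with the E2F word in capitals.
him-17, chrV:13176583-13176612: tttcaacaacgcTTGCCGCtctcattgctt
dsb-1, chrIV:12408780-12408809: tttgaatttgaaTTCGCGCgtaaaagtgat
msh-5, chrIV:13155255-13155282: acaattcaaaacGCGGGAAtggattccg

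**Figure D2:**
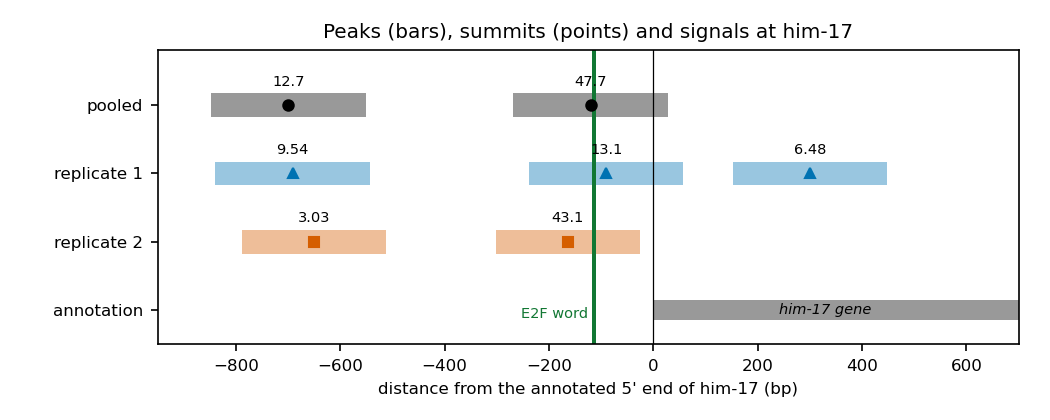
Peaks (bars), summits (points) and signals (numbers) around him-17 in the pooled list, replicate 1 and replicate 2, by distance in bp from the annotated 5' end; the green line is the E2F word. All 3 lists have a peak over the word, with signals of 47.7 (pooled), 13.1 (replicate 1) and 43.1 (replicate 2).

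The dsb-1 word, 133 bp upstream of the 5' end, directly follows a CHR element, the word TTCGAA or TTTGAA that LIN-54 recognises. DSB-1 promotes break formation by SPO-11. The gene had weak summits: a pooled signal of 5.88 at rank 25802 and 99 bp upstream, 5.59 at rank 15990 and 270 bp upstream in replicate 1, and 4.60 at rank 18321 and 3 bp upstream in replicate 2. The replicate summits lay 267 bp apart and the pooled one between them, so the lists did not place a common summit there. The 5' end of dsb-1 follows the end of gex-3 on the same strand. The nearest thresholded summit was at gex-3 itself, 108 bp from its 5' end and 4602 bp upstream of dsb-1, with a signal of 143.

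XND-1, a chromatin protein that shapes where breaks and crossovers fall, had no summit within 500 bp in any list. A thresholded summit lay 732 bp upstream, at chrIII:5603580-5603875, with a signal of 90.7 and rank 895. This summit is nearer to madf-11, the divergent neighbour, whose 5' end is 239 bp away. Replicate 1 had it at rank 925 with a signal of 35.8, and replicate 2 had a summit at rank 1411 with a signal of 43.6. It was the only thresholded summit within 1000 bp of a member, other than that of him-17, and unlike the him-17 summit it was among the 2712 strongest of both replicates.

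The other break genes had weak summits or none. SPO-11, the enzyme that cuts the DNA, had a pooled signal of 8.07 and a replicate 1 signal of 4.94, both 461 bp upstream, and no summit in replicate 2. A stronger pooled summit (signal 23.3) 944 bp upstream of spo-11 lies nearer to swsn-4. At dsb-2, a partner of dsb-1, the pooled signal was 14.3 and the replicate 1 signal 3.15, both 374 bp downstream in a coding exon. At him-5, which promotes breaks on the X chromosome, the pooled signal was 8.68 and the replicate 2 signal 2.26, about 415 bp downstream in the 5' untranslated region. dsb-3 had no summit in any list.

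Among the 6 genes of the central region of the synaptonemal complex, 4 had a pooled summit (66.7%, against 29.2% of all coding genes). Replicate 1 had a summit at 4 (66.7%, against 31.1%), and replicate 2 at 1, syp-4 (16.7%, against 28%). The pooled summit of syp-4 lay 259 bp upstream with a signal of 35.7 and rank 3450, outside the thresholded list. Its strongest summits were at rank 6225 with a signal of 11.9, 437 bp upstream, in replicate 1, and at rank 5272 with a signal of 16.0, 355 bp upstream, in replicate 2. Both of these lie nearer to the divergent gene H27M09.5, and each replicate also had a weaker summit nearer to syp-4, with signals of 8.76 in replicate 1 and 5.69 in replicate 2. The syp-6 summit lay 99 bp upstream in the pooled list (signal 22.5, rank 6740) and in replicate 1 (signal 15.4, rank 4044), and was missing from replicate 2. That promoter, which mei-2 shares in the opposite direction, holds a pair of E2F words 39 and 56 bp from the summit. syp-5 had a pooled signal of 12.2 and a replicate 1 signal of 5.35. syp-3 had a pooled signal of 20.4, at a summit 93 bp from the divergent gene F39H2.3 and 438 bp from its own 5' end. syp-2 had a replicate 1 signal of 2.35 only, 326 bp upstream. That summit lies in a coding exon of cox-16, 82 bp from the cox-16 5' end. syp-1 had no summit.

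The axis genes htp-1, htp-2, htp-3 and him-3 encode HORMA-domain proteins that line meiotic chromosomes. Replicate 1 had a summit within 500 bp at 1 of these 4 genes, htp-3 (signal 2.76, rank 26609), against 31.1% of all coding genes. None of the 4 had one in the pooled list (against 29.2%) or in replicate 2 (against 28%). At htp-1 all 3 relaxed lists had a weak summit inside the coding sequence, from 943 to 982 bp downstream, with pooled rank 24124. him-3 shares its promoter with pgl-1, a P granule gene whose 5' end is 190 bp away, and no list had a summit at that promoter.

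Of the 6 pairing genes, 2 had a replicate 1 summit (against 31.1% of all coding genes), 1 a replicate 2 summit (against 28%) and none a pooled summit (against 29.2%). HIM-8 and the ZIM proteins are zinc finger proteins that bind the pairing centres of particular chromosomes, SUN-1 is the nuclear envelope protein that links chromosomes to the cytoskeleton, and PLK-2 is a Polo kinase recruited to pairing centres. The genes zim-1, zim-2, zim-3 and him-8 lie side by side on chromosome IV. In replicate 1 him-8 (signal 6.79, rank 13126) and zim-3 (signal 6.53, rank 13676) had a summit, and in the pooled list and replicate 2 none of the 4 did. plk-2 had a replicate 2 signal of 8.79 at rank 10738 and 474 bp upstream. The pooled summit there lay 506 bp upstream, just past the distance limit, with a signal of 13.4. sun-1 had none. The nearest thresholded summit to the zim and him-8 cluster was in an intron of tax-6, between 46844 and 61663 bp from the 4 genes.

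Of the 8 crossover genes, 2 had a pooled summit (against 29.2% of all coding genes) and 3 a replicate 1 summit (against 31.1%). A replicate 2 summit was at 1 (against 28%), and none had one in both replicates (against 20.3%). ZHP proteins are RING finger proteins that mark and regulate crossover sites. zhp-3 had a pooled signal of 13.6 and a replicate 1 signal of 10.1 (rank 7975). zhp-4 had a pooled signal of 7.49 and a replicate 1 signal of 9.30 (rank 8887), at a summit in the 3' untranslated region of pro-3. zhp-1 had a replicate 1 signal of 6.18, and zhp-2 had no summit. Inside zhp-3, in an intron 1204 bp from its 5' end, lay a thresholded summit with a signal of 88.4, which ranked 1431 in replicate 1 and 897 in replicate 2. It was the only thresholded summit inside any of the 34 genes, and the nearest coding 5' end, that of K02B12.7, was 867 bp away. COSA-1 is a cyclin-like protein of crossover sites, and cosa-1 had a replicate 2 signal of 2.45. msh-5, which encodes a MutS homologue that stabilises crossover intermediates, had no summit, and neither did him-18 (a SLX4 homologue) or rmh-1 (an RMI1 homologue).

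Among the regulators of synapsis and cohesion, cra-1 had the strongest pooled summit of any member after him-17. CRA-1 is needed for the synaptonemal complex to assemble on paired chromosomes. Its pooled summit lay 27 bp upstream with a signal of 37.3 and rank 3226, the nearest of any member to the thresholded list without entering it. Replicate 1 had a summit 149 bp upstream with a signal of 19.7 and rank 2628, and replicate 2 one 39 bp upstream with a signal of 22.4 and rank 3424. The replicate 1 summit is 24 bp from the 5' end of kbp-1, a divergent kinetochore gene. That 5' end is also within 500 bp of the pooled and replicate 2 summits, so none of these summits can be given to cra-1 alone. PCH-2, the worm form of the AAA ATPase TRIP13, is a checkpoint and remodelling factor for HORMA proteins. pch-2 had a summit 167 bp upstream in replicate 1, with a signal of 22.4 and rank 2117, the highest rank of any member in that list. The nearest summit to pch-2 was 2029 bp away in replicate 2 and 2064 bp away in the pooled list, so this peak rests on 1 library. lab-1, whose product protects cohesion on the long arm, had no summit.

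**Figure D3:**
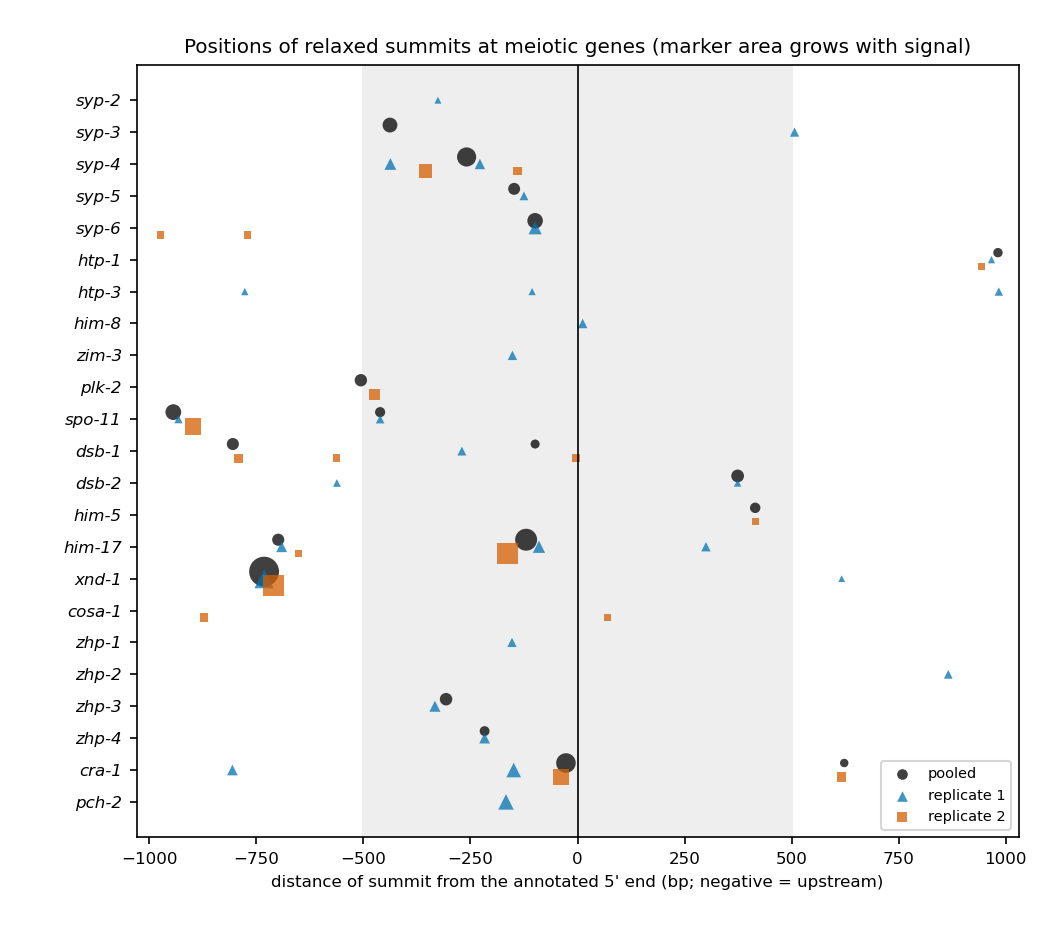
Summits of the pooled list (circles), replicate 1 (triangles) and replicate 2 (squares) within 1000 bp of the 5' ends of the 23 genes that have any, by distance in bp (negative is upstream); marker area grows with signal and shading marks 500 bp on each side. The largest markers are at xnd-1, 732 bp upstream in the pooled list and outside the shading, and most summits inside the shading lie upstream.

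The replicates shared few of these summits. Replicate 1 alone had a summit at 12 of the 34 genes (35.3%), against 10.8% of all coding genes, and replicate 2 alone at 3 (8.82%), against 7.77%. With replicate 1 limited to its 26192 strongest peaks, the length of the replicate 2 list, it had a summit at 14 members, against 29% of all coding genes. Among the 2712 strongest peaks, replicate 1 had a summit at cra-1 and pch-2 (2 of 34, against 7.75% of all coding genes) and replicate 2 at him-17 (1 of 34, against 8.47%). No member had one among the strongest of both, against 5.65% of all coding genes. In the 4 genes with summits in both lists, the strongest ones lay 74 to 267 bp apart, with a median of 96 bp. Over 4045 coding genes with summits in both lists the median was 77 bp. With 4 genes, these medians cannot show whether the members' replicate summits lay as close as those of other genes. A smaller share of members than of all coding genes had such a pair.

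Where members had summits, they ranked low. Over the 12 members with a pooled summit the median signal was 13.9, with a range from 5.88 to 47.7, and over all coding genes with one it was 22.2. The median was 6.66 in replicate 1, against 9.45 for all coding genes with a summit, and 8.79 in replicate 2, against 13.2. Of the 18 replicate 1 summits at members, 15 lay upstream of the 5' end, as did 6 of 8 in replicate 2. The share upstream was 59.4% in replicate 1 and 62.6% in replicate 2 over all pairs of a coding gene and a summit.

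At larger distances, thresholded peaks lay about as far from these genes as from others. The median distance from a member's 5' end to the nearest thresholded summit was 15908 bp, against 16199 bp for 17242 autosomal coding genes. Within 5000 bp there was a summit for 11 of 34 (32.4%), against 25.6% of autosomal coding genes. For 7 of these 11, the nearest summit lay within 500 bp of the 5' end of another gene, among them bag-1 near syp-6 (signal 228), F13A7.14 near syp-1 (191), perm-3 near htp-1 (125) and exos-2 near htp-2 (123). Each of these 4 summits was among the 2712 strongest of both replicates. Many worm genes are transcribed from the promoter of an upstream gene. Of the 34, 12 (35.3%) followed another coding gene on the same strand with a gap of at most 500 bp, against 20.7% of all coding genes. Counting also the 5' end of the first gene of such a run, 3 of 34 had a thresholded summit, against 11.9% of all coding genes. The added genes were dsb-1, through gex-3, and him-18, through emb-5 with a signal of 103. The annotation does not say whether these runs are operons.

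**Figure D4:**
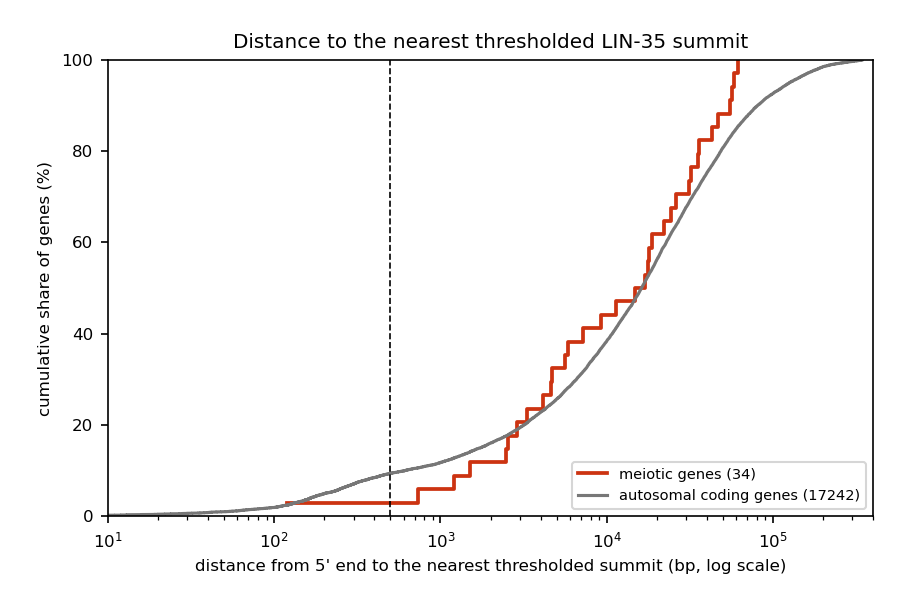
Cumulative share of genes (%) by distance in bp from the 5' end to the nearest thresholded summit (log axis), for the 34 meiotic genes (red) and 17242 autosomal coding genes (grey); the dashed line is at 500 bp. The red line stays at 1 gene past 500 bp and is above the grey line at 5000 bp (32.4% against 25.6%). The medians are 15908 bp for the red line and 16199 bp for the grey line.

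E2F words were found at 5 of the 34 promoters, in windows from 250 bp before to 50 bp after the 5' end, against 9.2% of all coding promoters. The 5 genes were syp-5, syp-6, dsb-1, him-17 and msh-5. The reversed word, which keeps the base composition, was in 3 of 34, against 5.49%. Median GC content of the windows was 31.3% for members and 34.3% for all coding genes. CHR elements were in 24 of 34 windows, against 68.9%, and their reversed form in 16 of 34, against 46.9%. Over all coding genes, 19.4% of those with an E2F word had a thresholded summit, against 7.52% of those without, and among members with the word it was 1 of 5. The reversed word gave 20.1% of coding genes with it, against 7.94% of those without, and 1 of 3 members, again him-17. A CHR element lay within 20 bp of the E2F word at 3 members (8.82%), against 389 of 19973 coding genes (1.95%). The gaps were 0 bp at dsb-1, 2 bp at msh-5 and 7 bp at syp-6. Of the 389 coding genes with such a pair, 121 had a thresholded summit (31.1%), and none of the 3 members did. A set of 3 genes is too small to compare with that share, and reversed words were not counted as pairs. These comparisons were chosen after the dsb-1 sequence was seen, and a word match is a description and not a binding site.

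Thresholded summits were at higher shares in 3 comparison lists, of cohesin, of recombination and repair, and of further meiosis and checkpoint genes. Like the 34 genes, these lists were drawn up with earlier results of these data known, and they are not limited to genes of meiosis. Cohesin genes had one at 3 of 12, the cohesin release factor gene wapl-1 (signal 291), the kleisin gene scc-1 (128) and smc-3 (47.7). All other genes of that list had none, namely rec-8, coh-1, coh-3, coh-4, scc-3, him-1, evl-14, scc-2 and mau-2. Recombination and repair genes had one at 6 of 25, led by brc-1, the BRCA1 orthologue (233), the nuclease genes fan-1 (191) and exo-1 (138). A further list of 25 meiosis and checkpoint genes had 6, led by mrt-2 and hpr-9, which encode parts of the checkpoint clamp (161 and 105), and the RNA-dependent RNA polymerase gene ego-1 (90.5). All 3 lists stood at 24% or 25%, against 1 of 34 for the pairing, synapsis and recombination genes and 8.61% of all coding genes. Summits in both relaxed replicate lists were at 4 of the 34 (11.8%), against 20.3% of all coding genes. They were at 6 of 12 cohesin genes, 12 of 25 recombination and repair genes and 13 of 25 in the further list. The difference between lists was not tested. rec-1, named after its values were seen, encodes a paralogue of HIM-5, and had a thresholded summit 55 bp upstream with a signal of 53.0, whereas him-5 had none.

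**Figure D5:**
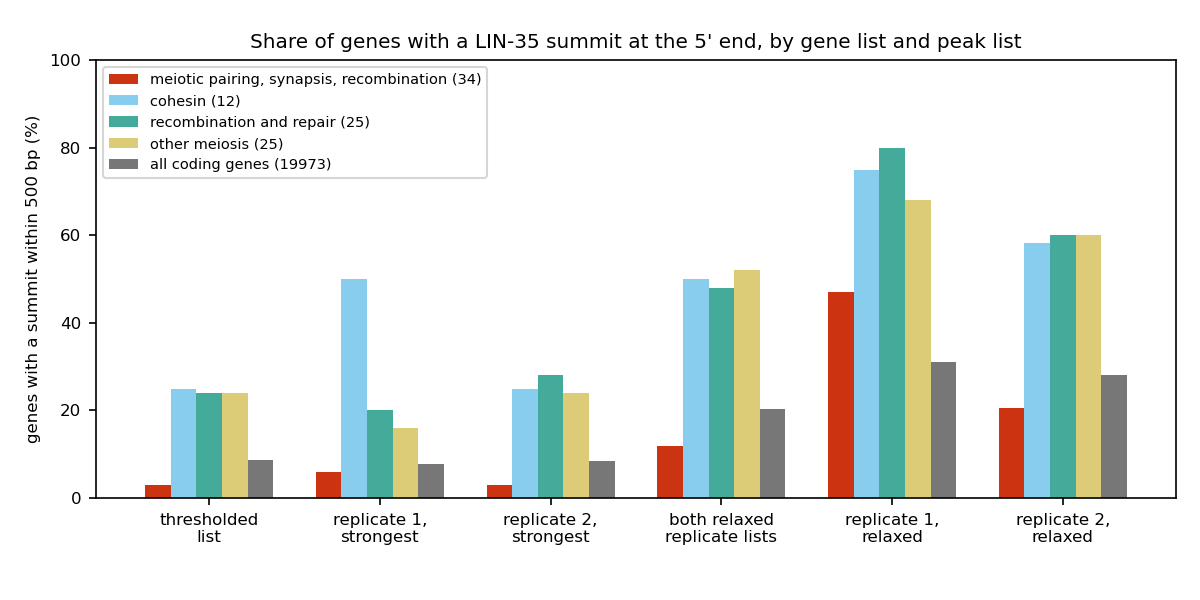
Share of genes (%) with a summit within 500 bp of the 5' end, in 6 peak lists. The 34 meiotic genes are red, and to their right stand cohesin, recombination and repair, other meiosis and all coding genes. Bars carry no error, and the 34 genes and the 3 comparison lists were drawn up with earlier results of these data known. In the thresholded list the 34 genes stand at 2.94%, the 3 comparison lists at 24% to 25% and all coding genes at 8.61%.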

How the data were processed

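Per the deposited text indexes, the relaxed lists of peaks and background were made from each replicate's alignments, or both pooled against a control. From these the authors derived the thresholded list. For the aligner and peak caller, names and versions were not given in the sources used here. The signal column is the authors' value for each peak. The deposited −log10 q-value was 3.78 for every thresholded peak and was not used for ranking. The ce10 lists were not used here, since the annotation is of WBcel235 (ce11), and no peak extends past its chromosome ends. Depth is unknown, so no interval is given.

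Gene 5' ends came from Ensembl release 115 and sequences from the RefSeq WBcel235 genome; work was done in Python 3.11.15 with pandas 2.3.3. A gene counts when a summit lies within 500 bp. Ties in rank take the lowest rank. The assignment code was checked on simulated data: all 200 genes with a summit planted within 500 bp were recovered. This checks the code and does not show which gene a real summit belongs to. No test was made, since there is 1 group and genes are not replicates. Nothing in the labels says more than that the replicates are biological. The members, lists and words were chosen with earlier results of these data known. Full values go to members in the thresholded list, among the strongest 2712 peaks of either replicate, or in all relaxed lists; others were described by role. Symbols missing from the annotation were dropped, 3 from the cohesin list and 2 from the further meiosis list.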

Additional observations from a re-analysis of the deposited data

How the results depend on the processing

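The count of 1 member with a thresholded summit, him-17, also held at 200 bp (4.49% of all coding genes, the quantity in each bracket here), with the nearest coding 5' end only (6.70%), with any transcript's 5' end (9.17%) and with overlapping peaks merged (8.60%). It was 2 within 1000 bp, with xnd-1 added (10.9%), 0 with the 1356 strongest peaks (5.52%), and 3 with the first gene of a run counted (11.9%), which was chosen after seeing the data. No thresholded list was remade without a replicate. In its place stand the counts given above for the 2712 strongest peaks of the other replicate. They were 1 for replicate 2, him-17 (8.47%), and 2 for replicate 1, cra-1 and pch-2 (7.75%). No member was thus among the 2712 strongest peaks of both within 500 bp. Summits in both relaxed lists were at 4 members (20.3% of all coding genes), 2 at 200 bp (8.30%) and 8 within 1000 bp (28.0%), and at 3 or 4 under the other settings (11.2% to 19.5%). Lists of the 1356 strongest peaks gave 0 in replicate 1 (4.88%) and 0 in replicate 2 (5.43%). Lists of 5424 gave 4 in replicate 1 (11.8%), 3 in replicate 2 (12.4%) and 2 in both (8.06%). Within 1000 bp the counts were 3 in replicate 1 (10.1%), 2 in replicate 2 (10.8%) and 1 in both (7.27%). The median distance between replicate summits was 98.5 bp with the summits nearest to the 5' end. In promoter windows the E2F word was in 5 members and its reverse in 3 (5.49%). In windows of 500 bp on each side the E2F word was in 11 members (25.9%) and its reverse in 5 (14.9%). The cause of these shifts was not tested. No paired analysis was possible because the 2 samples form a single group. With unknown depth, a missing summit does not show that binding is absent.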
